A study of Mus musculus with 2 samples.

Results

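Processed pseudogenes were described in 2 RNA libraries of mouse embryonic stem cells, in which 6525 of 121429 exon rows (5.37%) belonged to this class. A row was a member when GENCODE release M21 types its transcript as processed_pseudogene (6327 members) or transcribed_processed_pseudogene (198 members). The rule itself uses no measured value, but it was chosen with earlier results of these data known. The annotation holds 9943 and 301 transcripts of these types, and those with no exon row in the table were not analysed here. Both libraries are biological replicate 1 of wild-type, feeder-depleted DTCM23/49 XY embryonic stem cells grown on gelatin in serum with leukemia inhibitory factor. The cells took up 4-thiouridine (4sU, a uridine analog that newly made RNA incorporates) at 200 µM for 10 min. RNA with 4sU was biotinylated and pulled out on streptavidin beads as the labeled, newly transcribed pool, and the RNA left in the supernatant was the unlabeled, preexisting pool. The title and RNA label of this second library call it total, whereas its description and the protocol call it preexisting. It was treated as the unlabeled pool here. There was 1 library per pool, so no difference between the pools has a replicate check and no test was made. DTCM23/49 is a single cell line, which limits it as a model of embryonic stem cells in general.

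A processed pseudogene is a copy of a spliced messenger RNA that was reverse transcribed and inserted elsewhere in the genome, usually by the enzymes of LINE-1 retrotransposons. Such a copy starts without the introns and without the promoter of its parent gene, and it gathers mutations once it no longer has to encode a protein. Genes with abundant, short messages that are active in the germ line, such as those of ribosomal proteins and Gapdh, have left many copies in the mouse genome. Because a young copy resembles its parent along its whole length, a short read from the parent's messenger RNA can match both.

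Values are given in deposited units, in which the exon and intron values of each library sum to 10000000, and each value is already scaled for transcript length. RSEM, the program that made them, divides a read that fits several transcripts between them by an estimate, so a copy's value can hold reads of its parent, and how many it holds was not tested. Introns held 15.4% of the labeled and 6.26% of the unlabeled library, and 24.9% and 31.1% of all exon rows were at 0. All 8 markers of embryonic stem cells were above 0 in both libraries, with sums of 12178 labeled and 16084 unlabeled. The 6 feeder fibroblast markers summed to 7.49 and 16.2 with 3 at 0, and the 7 germ layer markers summed to 151 and 189, of which Pax6 alone had 138 and 151. The number of reads behind a value is unknown. In these bulk libraries, fewer cells with an RNA and less of the RNA per cell cannot be told apart.

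The following stretches show how much sequence a read would have to cover to tell a copy from its parent. Each set holds 90 bases of a parent's coding sequence and the matching bases of its copies, from GENCODE M21 (GRCm38), 5′ to 3′ on the transcript strand, with capitals where the copy differs from the parent. The first set is Gapdh, a glycolytic enzyme on chromosome 6, from base 300 of its transcript, followed by 5 copies in order of falling identity.
Gapdh: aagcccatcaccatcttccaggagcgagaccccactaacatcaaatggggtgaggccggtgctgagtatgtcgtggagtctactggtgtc
Gm10359 (chr5:105863406-105863495, minus strand): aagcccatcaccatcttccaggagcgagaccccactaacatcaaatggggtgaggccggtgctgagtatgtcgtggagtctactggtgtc
Gm10481 (chr5:13043138-13043227, minus strand): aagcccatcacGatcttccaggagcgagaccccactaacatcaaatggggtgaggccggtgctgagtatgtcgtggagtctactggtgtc
Gm5523 (chr1:13786588-13786677, minus strand): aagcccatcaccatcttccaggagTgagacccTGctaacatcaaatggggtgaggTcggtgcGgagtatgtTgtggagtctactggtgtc
Gm26931 (chr5:34482223-34482312, minus strand): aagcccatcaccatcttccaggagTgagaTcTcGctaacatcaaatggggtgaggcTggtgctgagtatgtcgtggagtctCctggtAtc
Gm26943 (chr13:112884413-112884502, plus strand): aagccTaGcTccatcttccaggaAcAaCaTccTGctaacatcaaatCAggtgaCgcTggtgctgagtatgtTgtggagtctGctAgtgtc
Gm10359 had no difference here, Gm10481 had 1, Gm5523 had 6, Gm26931 had 7 and Gm26943 had 16. The longest run shared with Gapdh was 90 bases in Gm10359, 78 in Gm10481, 24 in Gm5523 and 14 in Gm26943.

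The same is shown for selected copies of other families, not always those with the highest values. Npm1 encodes nucleophosmin, a nucleolar histone chaperone, and the stretch starts at base 849 of its transcript.
Npm1: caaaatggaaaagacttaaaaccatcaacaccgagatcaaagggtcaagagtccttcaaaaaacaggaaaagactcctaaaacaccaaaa
Gm14681 (chrX:66778610-66778699, minus strand): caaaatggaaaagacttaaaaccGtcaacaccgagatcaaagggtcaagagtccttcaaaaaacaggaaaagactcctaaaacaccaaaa
Gm15484 (chr5:110118175-110118264, minus strand): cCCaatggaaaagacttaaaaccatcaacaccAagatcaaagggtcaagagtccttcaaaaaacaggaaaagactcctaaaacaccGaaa
Hsp90aa1 encodes a cytosolic heat shock protein, and its short copy Gm11912 begins at base 2074 of the parent transcript.
Hsp90aa1: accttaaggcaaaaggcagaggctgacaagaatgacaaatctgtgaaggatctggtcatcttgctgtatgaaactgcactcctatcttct
Gm11912 (chr4:28592576-28592665, plus strand): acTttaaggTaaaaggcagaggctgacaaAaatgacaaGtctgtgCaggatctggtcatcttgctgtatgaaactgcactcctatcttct
Eef1a1 encodes the elongation factor that brings aminoacyl-tRNA to the ribosome, and Gm15796 begins at base 1306 of its transcript.
Eef1a1: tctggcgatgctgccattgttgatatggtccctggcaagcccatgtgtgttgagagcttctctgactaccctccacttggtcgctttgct
Gm15796 (chr5:38507463-38507552, plus strand): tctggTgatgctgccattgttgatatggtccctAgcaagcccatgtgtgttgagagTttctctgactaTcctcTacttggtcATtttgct
Tdgf1 encodes Cripto, a Nodal co-receptor of embryonic stem cells, and its stretch starts at base 391. Tdgf1-ps2 lies on the plus strand of chromosome 17.
Tdgf1: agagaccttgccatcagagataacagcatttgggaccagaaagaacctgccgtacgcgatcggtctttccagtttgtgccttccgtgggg
Tdgf1-ps1 (chr16:3730585-3730674, plus strand): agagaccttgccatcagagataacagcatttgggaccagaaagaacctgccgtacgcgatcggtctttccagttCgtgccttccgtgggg
Tdgf1-ps2: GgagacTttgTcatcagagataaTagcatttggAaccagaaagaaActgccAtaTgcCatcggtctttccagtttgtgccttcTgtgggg
Gm14681 and Tdgf1-ps1 differed from their parents at 1 base of these 90, Gm15484 at 4, Gm11912 at 5, Gm15796 at 7 and Tdgf1-ps2 at 10.

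Members were mostly short and unspliced. Of the 6525 members, 5969 (91.5%) had a single exon, and the median exon length was 544 bases, with quartiles of 367 and 883, against 1871.5 bases for protein-coding rows. A value above 0 in both libraries was listed for 4129 members, or 63.3% (95% Wilson interval 62.1% to 64.4%, which covers the number of members only). Another 471 members had a value in the labeled library only, 245 in the unlabeled library only, and 1680 (25.7%) were at 0 in both. Over all exon rows, 66.0% were above 0 in both libraries and 22.0% were at 0 in both, near the shares of the members. For comparison, 73.7% of protein-coding rows were above 0 in both libraries. Of unprocessed pseudogenes, a class of copies that arise by duplication of genomic DNA and keep their introns, 22.9% were.

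The members took a large share of the summed values of both libraries. Because values are scaled for transcript length, such a share is not a share of reads. The members' median length was 544 bases, against 1871.5 for protein-coding rows. Their exon values made up 22.8% of the labeled and 17.8% of the unlabeled library, beside 30.2% and 39.9% for protein-coding rows, 2.98% and 3.61% for unprocessed pseudogenes and 1.02% and 0.740% for lincRNAs. The median member stood at 7.53 units labeled and 4.47 units unlabeled. A mean of both libraries of at least 10 units was reached by 3018 members (46.3%, beside 40.1% of all exon rows). At least 100 units was reached by 1606 members and at least 1000 units by 457. Of all 121429 exon rows, 12511 and 1333 reached these levels. The 10 members with the highest means held 10.5% of the members' labeled sum and 13.8% of their unlabeled sum, and the top 300 held 67.4% and 66.5%, so the sums rested on a small part of the class.

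How far a member can be told from other genes was measured on the annotated transcripts. Every stretch of 50 bases of a member was looked up in the transcripts of all other genes on either strand. Of the 6522 members with such a stretch, 3644 (55.9%) had at most 10% of them elsewhere and are called own sequence, 1391 (21.3%) had at least 50% elsewhere and are called shared sequence, and 1487 lay between and are called mixed. In 349 members every stretch occurred in another gene, and in 137 of these every stretch occurred in a protein-coding transcript. The read length is not given in the sources used here, so 50 bases is a chosen length.

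Members with more shared sequence had higher values. The median labeled value was 1.00 units for own sequence, 36.5 for mixed and 92.6 for shared, and the unlabeled medians were 0.31, 32.2 and 110 units. Both libraries listed 46.0% of own-sequence members above 0, against 87.5% of mixed and 82.7% of shared members. The 1391 shared members held 12.8% of the labeled and 9.85% of the unlabeled library, while the 3644 own-sequence members held 3.40% and 3.10%.

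**Figure D1:**
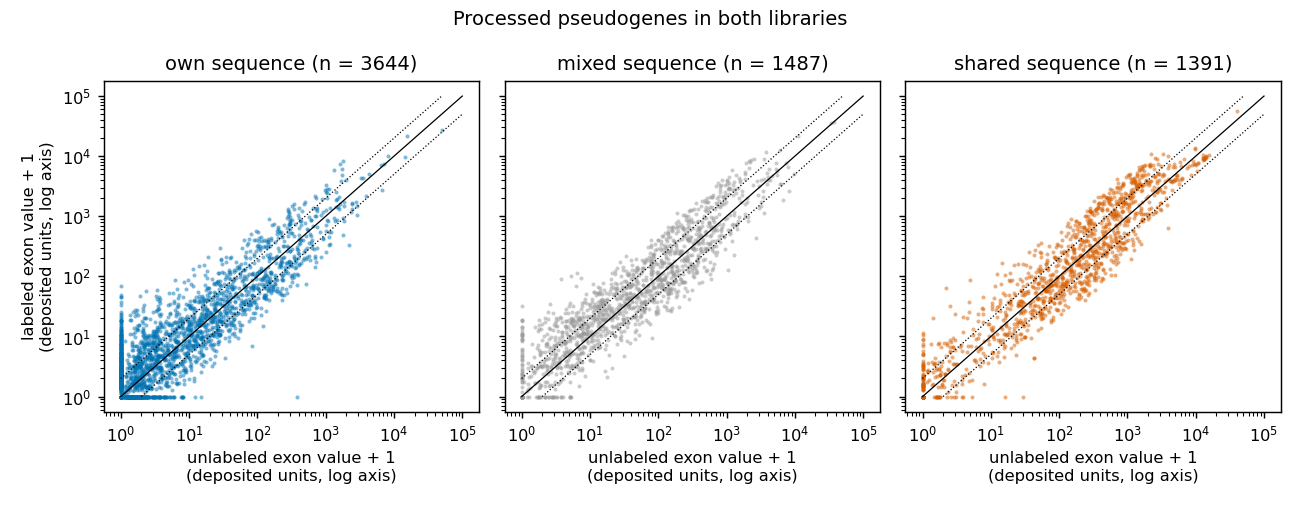
Labeled against unlabeled exon value of each member (deposited units plus 1, both axes logarithmic), in 3 panels by the share of 50-base stretches found in other genes. Solid lines mark equal values and dotted lines 2-fold. Most of the 3644 own-sequence members sit near the origin, at medians of 1.00 and 0.31 units, and shared members sit higher along the diagonal.

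A parent was assigned as the protein-coding gene with the best sense-strand alignment over at least 50% of the member. This gave 6150 members 1985 parents at a median identity of 90.1%, with quartiles of 82.8% and 95.7%, and left 375 members without a parent. The share of members above 0 in both libraries was 23.4% below 80% identity, 41.9% from 80% to 85%, 63.8% from 85% to 90%, 84.1% from 90% to 95%, 91.9% from 95% to 98% and 90.2% above. Median labeled values over the same steps were 0, 0.60, 3.68, 25.4, 88.5 and 243 units, and median unlabeled values were 0, 0, 2.08, 19.5, 97.2 and 271 units. Identity and the mean value ranked together across the 6150 members (Spearman's rho 0.656), as a description of members that share both libraries and often a parent. The 848 members of at least 98% identity held 11.2% of the labeled library, and the 1115 below 80% held 0.0680%. The 375 members without a parent resembled the lowest step, with 21.6% above 0 in both libraries and medians of 0.

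**Figure D2:**
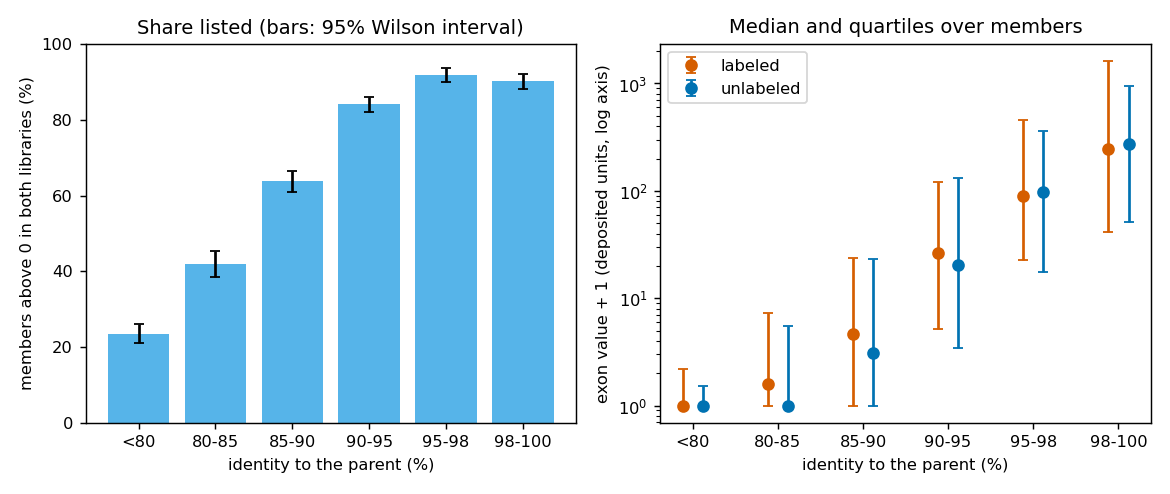
Left, share of members above 0 in both libraries (%, bars with 95% Wilson intervals) by identity to the parent (%). Right, median and quartiles of the exon value plus 1 (deposited units, logarithmic axis) in the labeled and the unlabeled library. The share goes from 23.4% in the lowest to 90.2% in the highest step and the labeled median from 0 to 243 units.

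The highest single values belonged to a few families. Gm14681, a 411-base copy of Npm1 on the X chromosome (97.4% identity, 78.2% of stretches shared), had 55791 units labeled and 39726 unlabeled. Gm7289, a second Npm1 copy at 90.6% identity, had 37393 and 37190, and Gm15484, at 92.2% identity, had 35822 and 33298. Npm1 itself, summed over its transcripts, had 236420 and 201851 units, so each of these copies stood below it. A few copies of mitochondrial genes were also high, led by Gm11512 (27281 and 50923), Gm11410 (21618 and 15583) and Gm4076 (21267 and 11129), and the mitochondrial genes have no row in the table used here. Of the 23 such copies, 5 had a mean of at least 1000 units, the others had means of 81.1 or less, and 9 were at 0 in both libraries. They are members by their annotated type only. Whether they are copies of a messenger RNA or of mitochondrial DNA was not tested. The remaining members of the top 10 were the Gapdh copies Gm10359 (10308 and 15491), Gm7336 (9968 and 14072) and Gm13394 (9673 and 14266), and Gm11912 (9666 and 14311).

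Gapdh had the most copies. Of 343 members that aligned best to it or to Gm10358, a coding Gapdh-like gene without a row here, 120 reached a mean of 10 units. Together they summed to 242132 units labeled and 326601 unlabeled, 4.60-fold and 4.58-fold the value of Gapdh itself (52691 and 71272). The 34 copies of at least 98% identity ranged from 822 to 10527 units labeled and from 1029 to 15491 unlabeled, with medians of 6565 and 7749. The 33 copies from 95% to 98% had medians of 289 and 505 units, the 73 from 90% to 95% had 17.6 and 13.0, the 97 from 85% to 90% had 2.51 and 1.93, and the 57 from 80% to 85% had 0.40 and 0.21. Identity and mean value had a Spearman's rho of 0.861 across the 343 copies.

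The 5 copies printed above followed this order. Gm10359, identical to Gapdh over the aligned length, had 10308 and 15491 units, and Gm10481, at 99.1% identity, had 7680 and 10750. Gm5523, at 94.0%, had 550 and 627 units, and Gm26931, at 90.1%, had 38.2 and 35.0. Gm26943, at 74.0%, had 27.7 units labeled and 2.58 unlabeled, so it was low in both and mostly in the labeled library. Some copies stood off the trend. Gm14491, a 199-base copy at 84.7% identity with 36.7% of its stretches shared, had 1575 and 1847 units. Gm27006, at 68.9% and with no shared stretch, had 197 units labeled and 28.8 unlabeled and lies in an intron of another gene on the opposite strand.

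**Figure D3:**
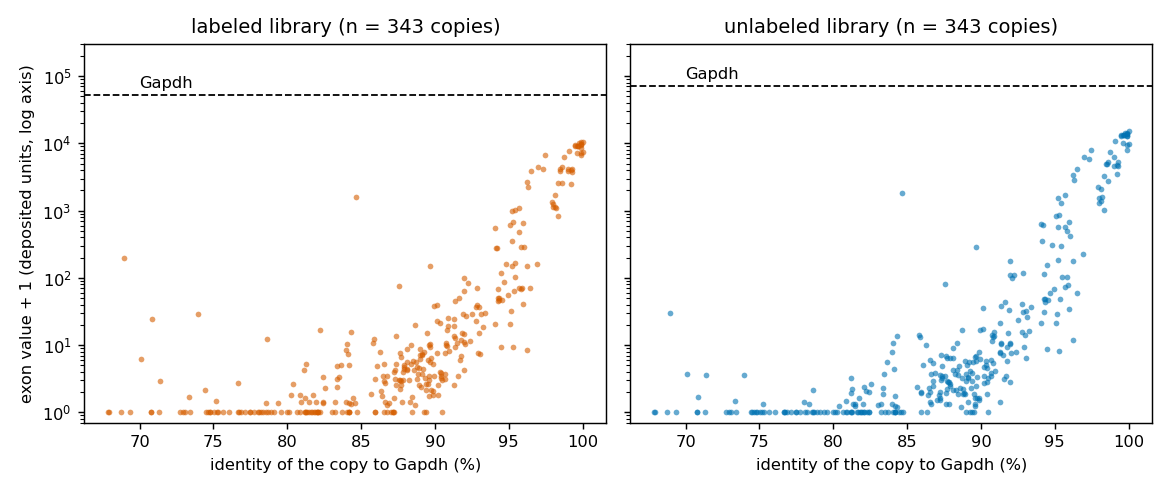
Exon value plus 1 (deposited units, logarithmic axis) of 343 Gapdh copies against their identity to Gapdh (%), in the labeled and the unlabeled library. Each point is a copy and the dashed line is Gapdh. The 34 copies of at least 98% identity sit between 822 and 10527 units labeled, all below Gapdh.

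Other parents had large families of copies as well. Rpl7a, a large-subunit ribosomal protein gene, had 118 copies that summed to 1.71-fold its labeled and 1.77-fold its unlabeled value. Rps2 of the small subunit had 101 copies (1.73-fold and 1.62-fold), and Rpl21 had 92 copies (5.66-fold and 6.03-fold). Hmgb1, a DNA-bending chromatin protein gene, had 89 copies at 2.47-fold and 2.19-fold. Among 225 parents with at least 5 copies and a mean of at least 10 units, the copies' sum was above the parent in 112 parents labeled and 120 unlabeled, with a median of 0.999-fold and 1.05-fold. In contrast, 2 families, chosen after their values were seen, had a parent at or near 0 and low copies. The 48 copies that aligned best to Crb1, a cell polarity gene at 0.87 and 0.81 units, had no member at a mean of 10, and the 35 copies of Gm20777 were at 0 in both libraries, as was Gm20777. Across all families, 19 members reached a mean of 10 units with a parent below 10.

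The pools were compared as log2((labeled + 1)/(unlabeled + 1)) over members with a mean of at least 10 units, a scale that understates the change of low members. Over these 3018 members the median was 0.21, with quartiles of -0.76 and 1.24. The median over all 48702 exon rows of that level was -0.23 and over 22501 protein-coding rows -0.52, so the members' median lay 0.73 above that of protein-coding rows, a difference that stays when both ratios are shifted alike. Unprocessed pseudogenes had a median of -0.02 and lincRNAs of 1.20. At least 2-fold higher labeled values were seen in 938 members (31.1%), beside 20.8% of all exon rows and 8.72% of protein-coding rows. At least 2-fold lower labeled values were seen in 546 members (18.1%), beside 23.1% and 28.4%. Both columns have the same sum, which sets where a ratio of 0 lies, so the sign of a single median depends on it. When preexisting RNA that leaks into the labeled pool was subtracted, with its size set by the lowest protein-coding ratios, the members' median was -0.046, and 27.6% were at least 2-fold higher and 30.9% lower labeled, so the more common direction turned.

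The ratio followed the kind of parent. The 1604 members with a parent on the list of cytosolic ribosomal protein genes held 11.6% of the labeled and 4.87% of the unlabeled library, which was 51.0% and 27.3% of the members' sums. Of the 781 with a mean of at least 10 units, 552 (70.7%) were at least 2-fold higher labeled and 0 were 2-fold lower. Over all exon rows of that level these shares were 20.8% and 23.1%. The median log2 ratio of the 781 copies was 1.39, beside 1.43 for their parent genes. Another 51 members aligned best to 5 ribosomal protein-like genes that the list leaves out, such as Rps12-ps3 and Rpl22l1, and 28 of the 31 with a mean of at least 10 units were at least 2-fold higher labeled. Copies of nuclear genes for oxidative phosphorylation were as high, with 59 of 75 (78.7%) at least 2-fold higher labeled, 0 lower and a median of 1.46 (parents 1.49). All the other lists had medians below 0. Without the copies of listed ribosomal protein genes, the median of the remaining 2237 members, which still include those 31, was -0.29, beside -0.23 for all rows.

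Cytoskeletal copies were lowest, with a median log2 ratio of -0.87 over 43 members (parents -0.68). Of these, 4 (9.30%) were at least 2-fold higher labeled and 17 (39.5%) lower, beside 20.8% and 23.1% of all exon rows. Copies of translation factor genes had a median of -0.81 over 67 members, with 4 (5.97%) higher and 20 (29.9%) lower (parents -0.71). Glycolysis copies, mostly of Gapdh, had -0.32 over 125, with 3 (2.40%) higher and 7 (5.60%) lower (parents -0.16). Chromatin and nucleolar copies had -0.14 over 134, with 12 (8.96%) higher and 15 (11.2%) lower. Folding copies had -0.07 over 67, with 7 (10.4%) and 9 (13.4%). RNA-binding and splicing copies had -0.08 over 73, with 16 (21.9%) and 18 (24.7%), near the shares of all exon rows. Pluripotency copies had -0.31 over 21, with 7 (33.3%) and 6 (28.6%). The 1632 members with another parent or none had -0.34, with 274 (16.8%) higher and 454 (27.8%) lower. With both libraries rescaled so that protein-coding rows centre on 0, which adds 0.52, these last 6 groups had medians above 0, while the cytoskeletal and translation factor copies stayed below at -0.35 and -0.30. With leakage into the labeled pool subtracted, the medians lay lower, at -1.51 for cytoskeletal, -1.43 for translation factor, -0.72 for glycolysis, -0.49 for chromatin and nucleolar, -0.41 for RNA-binding and splicing, -0.40 for folding, -0.67 for pluripotency and -0.73 for the remaining copies, while ribosomal protein and oxidative phosphorylation copies stayed above 0 at 1.28 and 1.36.

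**Figure D4:**
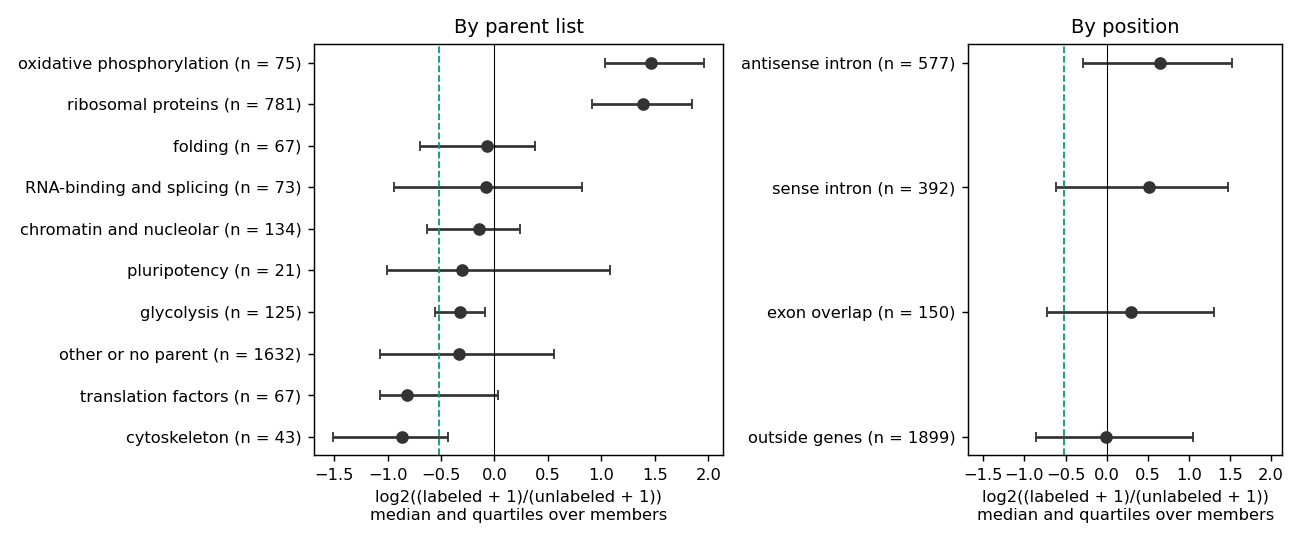
Median and quartiles of log2((labeled + 1)/(unlabeled + 1)) over members with a mean of at least 10 deposited units, by list of parent genes (left) and by position (right). The solid line marks 0 and the dashed line the median of protein-coding rows, -0.52. Copies of ribosomal protein and oxidative phosphorylation genes have medians of 1.39 and 1.46, and all other lists have medians below 0.

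Copies among the 2 with the highest means of each list are given beside their parents. Rpl31-ps8, identical to Rpl31 over its 378 bases, had 13812 units labeled and 9628 unlabeled, beside 46881 and 29875 for Rpl31, a log2 ratio of 0.52 beside 0.65. Gm4963, a copy of Rps25 at 95.8%, had 11744 and 3819 units, above its parent (6671 and 2584), and log2 ratios of 1.62 and 1.37. Gm12338, identical to Cox7c of cytochrome c oxidase, had 3929 and 1307 units, a log2 ratio of 1.59 beside 1.49, and Gm10012, its copy at 99.0%, had 2854 and 1130 units and 1.34. Gm10123, identical to the prolyl isomerase gene Ppia, had 13127 and 9891 units, with 0.41 beside 0.22. Gm17383 and Gm14150, copies of the alpha tubulin gene Tuba1b, had 2051 and 3696 units and 1409 and 2694 units, with -0.85 and -0.94 beside -0.84. Gm5869, a 96.3% copy of Eef1a1, had 3484 and 6325 units, with -0.86 beside -0.83. Gm5641, identical to the splicing regulator gene Hnrnpa3, had 1724 and 1203 units, with 0.52 beside 0.44. Gm11560, a 95.1% copy of the RNA-binding protein gene Ybx1, had 828 and 2091 units, with -1.34 beside -0.89.

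Across 2910 pairs of a member and its parent, both with a mean of at least 10 units, the log2 ratios of member and parent had a Pearson's r of 0.83. The pairs share both libraries and come from 1137 parents, so they are not independent, and no p is given. The median difference, member minus parent, was -0.05, and 2065 pairs (71.0%) lay within 0.5 of each other. By sequence class, r was 0.89 over 1006 pairs of shared sequence, 0.86 over 981 of mixed and 0.75 over 923 of own sequence. By identity, r was 0.92 at 98% or more (730 pairs), 0.90 from 95% to 98%, 0.81 from 90% to 95%, 0.81 from 85% to 90%, 0.72 from 80% to 85% and 0.34 below 80% (71 pairs). Among these 2910 pairs, the median member stood at 13.4% of its parent's level, and 174 members stood above their parent. Members below a mean of 10 units are not in this figure.

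**Figure D5:**
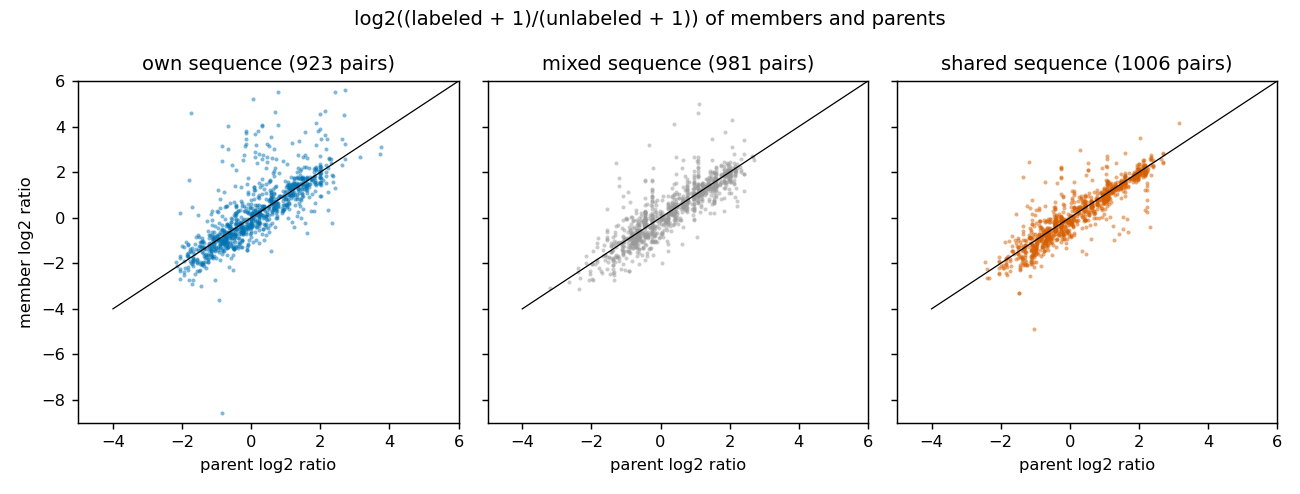
log2((labeled + 1)/(unlabeled + 1)) of each member against that of its parent, for 2910 pairs with means of at least 10 deposited units, in 3 panels by sequence class. The line marks equal ratios. Points gather on the line in all panels, with r of 0.89 for shared and 0.75 for own sequence, and most points far from it lie above it among own-sequence members.

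The most diverged members differed from the rest. Few of them reached a mean of 10 units, 82 of 1115 (7.35%) below 80% identity and 33 of 375 (8.80%) without a parent. The 82 had a median log2 ratio of 1.21, with 47 (57.3%) at least 2-fold higher labeled and 7 (8.54%) lower. The 33 had 1.57, with 21 (63.6%) and 2 (6.06%), and all exon rows had 20.8% and 23.1%. A member can reach this mean through 1 library alone, and the part this has in these ratios was not tested. In the 71 pairs below 80%, the member's ratio lay above its parent's by a median of 0.72, beside -0.02 from 80% to 85% and -0.06 from 85% to 90%.

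Members were placed by the other genes around them. Of the 6525, 4502 lay outside genes, 710 within an intron of a gene on the same strand, 1043 within an intron on the opposite strand, and 270 overlapped an exon. The median log2 ratio was -0.01 outside genes (1899 members), 0.52 in sense introns (392), 0.65 in antisense introns (577) and 0.29 with exon overlap (150). Among own-sequence members the medians were -0.13 outside genes, 0.74 in sense introns and 0.74 in antisense introns. Below 85% identity they were -0.38 (130 members), 1.44 (32) and 1.16 (74). Whether the libraries keep strand is not given in the sources used here, and the part that reads of a host's unspliced transcript have in a member's value was not tested.

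The log2 ratio of the host's introns had a median of 1.07 over 224 members in sense introns and 1.45 over 376 in antisense introns, both above 0 and below the 1.85 of all intron rows. The member's ratio and its host intron's ratio had a Pearson's r of 0.30 and 0.39, against 0.71 and 0.69 for the same members and their parents. A host intron's value can in turn hold reads that fit the member within it. The ratios of member and host are therefore not independent, and how many such reads there are was not tested. For members below 90% identity or without a parent, r with the host intron was 0.34 (46 members) and 0.43 (93), and with the parent 0.50 and 0.50. Of the members in introns, 71.8% of sense and 72.8% of antisense were above 0 in both libraries, beside 59.0% outside genes. Gm42672, a 77.1% copy of the complex I gene Ndufb4 in an intron of Arnt, had 291 units labeled and 27.7 unlabeled (log2 ratio 3.35), beside 43.6 and 6.80 for the Arnt introns (2.52) and 501 and 192 for Ndufb4 (1.38). The sense-intronic members with the highest values had hosts far below them. Gm11512 in Stxbp4 had 27281 units labeled where the host introns had 813. Gm13394 in Cfap77 had 9673 where the host introns had 103, and Gm2451 in Stpg2, another Gapdh copy, had 9062 where they had 26.1. The introns of Stxbp4, Cfap77 and Stpg2 had log2 ratios of -0.77, -0.47 and -0.17, beside -0.90, -0.56 and -0.53 for these copies. Those of Ssh2 had -0.34 beside -0.46 for Gm12346, and those of 2810403D21Rik had 0.49 beside -0.92 for Gm14870.

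Own-sequence members outside other genes are those whose sequence is most distinct within the annotated transcripts at the chosen stretch length. After Gm11410 and Gm11912, the highest were Gm15796, Gm12732, Gm17906 and Gm14107. The read length is unknown, and membership of this class depends on the chosen length. At 36 bases, 21.3% of stretches occurred elsewhere for Gm15796, 20.7% for Gm12732, 12.7% for Gm11912 and 11.9% for Gm14107, above the 10% limit. The shares were 3.07% for Gm11410 and 0.924% for Gm17906. Gm11410 aligned best to mt-Cytb, which has no row here. Gm15796, the Eef1a1 copy printed above, had 7548 units labeled and 7171 unlabeled, a log2 ratio of 0.07, while Eef1a1 had 30845 and 55002, a ratio of -0.83. Gm12732, a 180-base copy of Rpl23, had 8442 and 1820 units (2.21, parent 1.88). Gm17906, an Npm1 copy at 82.3% identity with no shared stretch at the chosen length, had 5080 and 4376 units. Its ratio of 0.21 was near the 0.23 of Npm1. Gm14107, a copy of the heat shock protein gene Hsp90ab1, had 2761 and 6690 units (-1.28, parent -0.97). Gm11912, with 2.33% of stretches shared at the chosen length, had a ratio of -0.57 beside -0.25 for Hsp90aa1. Of the 5 copies here whose parent has a value, only Gm15796 differed from it by more than 0.5 in log2 ratio.

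The extreme ratios were found at modest levels. Among members with a mean of at least 100 units, Gm15393, a copy of the complex III gene Uqcrq, had the highest ratio, 3.48, with 206 units labeled and 17.6 unlabeled, and Uqcrq had 2.19. Gm14567 and Gm20305, copies of the RNA polymerase subunit gene Polr2k, had 255 and 34.8 units and 332 and 47.3 units, ratios of 2.84 and 2.79 beside 2.69 for Polr2k. 2210409E12Rik, a transcribed copy, had 361 and 52.6 units (2.76). At the other end, Gm42844, a 112-base copy of Rnf17, was listed at 0 labeled and 379 unlabeled. Gm6352, a copy of the cyclin gene Ccni, had 125 and 1063 units, a ratio of -3.08 beside -3.19 for Ccni. Gm12186 (Pcbp2), Gm5435 (Gtf2a1) and Gm15502 (Vdac1) had ratios of -2.75, -2.73 and -2.73, each below its parent at -1.69, -2.07 and -1.94.

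Among own-sequence members outside genes and of at least 10 units, the largest labeled excess was in Gm12240, listed at 68.2 labeled and 0 unlabeled, which has no parent. Gm42647, a copy of Rpl29, had 26.4 and 0.61 units, and Gm42807, without a parent, had 44.8 and 2.63. The lowest after Gm42844 were Gm6693 (5.89 and 81.9) and Gm43424 (14.1 and 118), both below their parents Ammecr1l and Tmem131 in ratio (-3.59 against -0.92 and -2.98 against -1.44). With 1 library per pool, a value of a few units has no measured error.

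The ratio differed with length. The median log2 ratio was 1.24 for members under 200 bases, 0.92 from 200 to 400, 0.56 from 400 to 800, -0.41 from 800 to 1600 and -1.004 at 1600 or more. Protein-coding rows had no such steady fall, with medians of -0.33, -0.36, -0.23, -0.06 and -0.68 over the same steps. Length and ratio had a Spearman's rho of -0.41 over 3018 members, and the difference between member and parent had -0.08 over 2910 pairs. Median differences from the parent were -0.02, 0.00, -0.07, -0.08 and -0.10 over the same steps, so parents of short copies had the higher ratios as well. The percent of T in the sequence, the base that stands for uridine, had a rho of -0.21 with the ratio and -0.03 with the difference from the parent.

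Identical copies did not always have equal values. In 37 groups of members with the same full sequence (90 members), 22 groups had a value above 0, and in 2 of these every copy had the same value in both libraries. Gm2574 and Gm5138, both Gapdh copies, had 9061 units labeled and 13393 unlabeled each, and Gm8704 and Gm3922 had 3.41 and 42.3 each. In contrast, Gm10359 had 10308 and 15491 units where the identical Gm12671 had 7412 and 9636. Rps19-ps2 had 1814 and 518 units where Rps19-ps1 had 406 and 109, and Gm13812 had 345 and 508 where Gm13810 had 35.1 and 56.3. The 5 identical copies Rpl35a-ps2, Rpl35a-ps3, Rpl35a-ps4, Rpl35a-ps6 and Gm10243 ranged from 1579 to 2900 units labeled and from 368 to 695 unlabeled. These groups and the pairs named from them were chosen after their values were seen.

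The 198 transcribed processed pseudogenes, for which the annotators had evidence of a transcript, were compared with the rest. Of them 142 (71.7%, 95% Wilson interval 65.1% to 77.5%) were above 0 in both libraries, against 63.0% (61.8% to 64.2%) of the 6327 others, and their median values were 11.5 and 6.78 units against 7.35 and 4.37. Over the 100 with a mean of at least 10 units, the median log2 ratio was 0.40 (95% interval of the median -0.08 to 0.64), beside 0.21 (0.12 to 0.27) for the others. These intervals cover the number of members only. Members share both libraries and often a parent, and no test between the groups was made. The highest were Gm12346, an Hsp90aa1 copy (9347 and 12883 units), Gm6061, a Ppia copy (8917 and 6778), Gm9320, an Rps24 copy (9136 and 2727), Gm15500, a copy identical to Rpl5 (7062 and 4039), and Gm4691, a Gapdh copy (3915 and 4536). Each of these had at least 58.0% of its stretches in other genes.

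Copies of pluripotency genes were few. Nanog, a transcription factor of naive embryonic stem cells, had 1099 units labeled and 2416 unlabeled. Its copy Nanog-ps1 (250 bases, 97.6% identity) had 129 and 606 units, a log2 ratio of -2.23 beside -1.14 for Nanog. Nanog-ps2 (81.8% identity, no shared stretch) had 18.7 and 45.1 units (-1.23), and Gm15901, at 70.5%, was at 0 in both. Pou5f1, which encodes Oct4, had 783 and 1198 units, and its 5 copies were all low. Gm5712 had 9.66 and 12.2, Gm15049 had 7.97 and 0, Gm6539 had 2.60 and 4.16, Gm21054 had 1.29 and 3.05, and Gm2071 had 0 in both. Tdgf1-ps1, with 1 difference in the stretch printed above and 50.9% of its stretches shared, had 4775 and 8459 units beside 6384 and 10031 for Tdgf1. Tdgf1-ps2, with no shared stretch, had 1572 and 2452 units and a ratio of -0.64, beside -0.65 for Tdgf1.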

How the data were processed

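The authors deposited 1 table of exon and intron values per transcript for both libraries, named TPM. Here the deposited values were treated as a score, because each column sums to 10000000, which is 10 times the sum of TPM values. Per the paper's methods and the submitters' processing notes, reads were first cleared of ribosomal RNA, then aligned with STAR 2.5.0 to intronic and exonic sequences of Ensembl release 91 (GRCm38/mm10) and quantified with RSEM. Transcripts were typed by GENCODE M21, a later release. Members and gene lists were chosen with earlier results of these data known.

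Stretches of 50 bases were matched exactly on both strands, after a check on simulated sequences. Parents came from blastn 2.17.0 (dc-megablast, sense strand, E-value 1e-10, non-overlapping locus), and a parent's value is the sum over its transcripts. The printed stretches are the first in-frame 90 bases of the parent's coding sequence that align to all copies of a set without gaps (edlib 1.3.9). The pseudocount was 1 and the minimum mean 10. Intervals are Wilson intervals for shares and order-statistic intervals for medians and cover the number of members only. Named members were the 10 highest means, the 5 highest and 5 lowest ratios at a mean of at least 100, the highest and most extreme own-sequence members outside genes, the highest sense-intronic and transcribed members, the 5 largest families, the 2 highest of each parent list, and the copies of Nanog, Pou5f1 and Gapdh. The design had assumed TPM, and the log-scale summaries it set were kept. Alternatives were other pseudocounts, minimum levels, scalings, stretch lengths and parent definitions. Depth per library is not known from these values.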

Additional observations from a re-analysis of the deposited data

How the results depend on the processing

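No paired analysis was possible because each pool has a single library, and nothing here was tested. Under the alternatives run, 35 recomputed values stayed within the spread or factor set for them, 33 moved past it and 11 changed sign. With a value of at least 1 unit required, 57.7% of members were listed in both libraries. The median log2 ratio of members was 0.31 with no minimum level, 0.73 when centred on protein-coding rows, -0.046 after subtraction of leakage (RNA without 4sU in the labeled pool, set by the lowest protein-coding ratios) and -0.29 without ribosomal protein copies, an alternative added after seeing the data. The share at least 2-fold higher labeled was 26.3% with a pseudocount of 10, 43.3% centred and 27.6% after leakage, and the share lower was 14.0%, 7.95% and 30.9%, and 16.0% with no minimum. Centring, added for the lists after seeing the data, turned 6 medians above 0: RNA-binding and splicing 0.44, chromatin and nucleolar 0.38, folding 0.45, glycolysis 0.20, pluripotency 0.21 and other or no parent 0.18.

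The share of members with shared sequence was 27.3% at 36 bases, 16.4% at 75, 13.9% at 100 and 11.7% against coding transcripts only. The shared minus own difference in median log2 ratio (-0.07) became 0.19 at 36 bases, 0.41 at a mean of at least 100 and 0.0071 among members that overlap no other gene, so its direction depends on the setting. The sense host intron minus outside difference (0.53) was 0.87 for own sequence, 0.33 at a mean of at least 100 and 0.35 without ribosomal protein copies, the last added after seeing the data. The member and parent correlation for own sequence was 0.83 as Spearman's rho, 0.71 and 0.81 with pseudocounts of 0.1 and 10, and 0.90 at means of at least 100. For shared sequence it was 0.91 with a pseudocount of 10, 0.95 at means of at least 100 and 0.87 against the highest parent transcript. The cause was not tested for any of these. The search for stretches in the whole genome was not run, as no genome was used here. Depth is unknown, so a member at 0 may have been below what these libraries could show.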

Other observations

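Of the 6525 members, 594 had an intron row as well, and 305 of these intron rows were above 0 in both libraries. These are more members than have several exons in GENCODE M21, so the table and that annotation differ in the introns of some members. Over the 153 with a mean of at least 10 units, the median log2 ratio of labeled to unlabeled was 1.61. The median over all intron rows was 1.85, and the exons of the same 153 members had a median of 0.00.

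The 23 members whose best parent was a mitochondrial gene summed to 0.869% of the labeled and 0.856% of the unlabeled library, and 19 of them were own sequence. Gm11407 and Gm11408, which lie beside Gm11410 on chromosome 4, had 12580 and 6094 units and 3903 and 1657 units. They aligned best to mt-Nd5 and mt-Nd6, and Gm11410 to mt-Cytb. Gm11407 and Gm11410 lie on the plus strand and Gm11408 on the minus strand.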
